A study of Rubus occidentalis with 14 samples.

Results

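Fruit of black raspberry (Rubus occidentalis) at stage 3 was compared with fruit at stage 2 across all genes that were expressed in either stage. The comparison used 3 libraries of stage 3 and 3 of stage 2, out of 14 libraries that follow the fruit through 5 numbered stages. A gene entered when it reached 10 normalised counts in at least 2 of these 6 libraries, which 17358 of the 33253 genes in the table did. Both stages came from whole fruit of one advanced breeding selection, NC 349, grown at a single research station, with no treatment other than the stage itself. The replicates are named biological, but nothing in the labels ties a library to particular plants or pickings. A p-value here is therefore set against library-to-library spread, which can include technical variation. The question named for the series is how gene activity changes as the fruit passes through its stages.

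Ripening turns a hard, green, photosynthetic organ into one that is soft, sweet and coloured. Chloroplast functions are run down, cell wall polymers are loosened, sugars accumulate and, in dark raspberries, anthocyanin pigments are made in quantity. A raspberry is an aggregate of drupelets, each with flesh around a hard stone and a seed. RNA of whole fruit therefore mixes several tissues, and a smaller number of cells of one kind cannot be told apart from less RNA per cell. The table gives identifiers without gene names, so no function, pathway or tissue marker could be assigned to any gene, and the tissue label could not be checked against markers.

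A unit of measurement applies throughout. A normalised count is a gene's read count divided by 1 size factor for its library, as deposited. Stage 3 libraries held 8597118 to 34512921 reads and stage 2 libraries 8601064 to 39938265. The value of 1 read averaged 1.67 normalised counts in stage 3 and 0.810 in stage 2, so low levels were measured more coarsely in stage 3. In stage 3, replicates 2 and 3 share the title code TH307 and replicate 1 has YH029. In stage 2, replicates 2 and 3 share YH340 and replicate 1 has YH028. What these codes stand for is not stated. One library stood apart from its stage: stage 2 replicate 2 lay towards stage 3, and the counts and genes that moved most with it are given with and without it.

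Most of the expressed genes differed between the stages. In stage 3, 4458 genes were higher and 5227 lower than in stage 2, which is 9685 called genes or 55.8% of those tested (limma, Benjamini-Hochberg adjusted p below 0.05). The rises made up 25.7% and the falls 30.1% of the tested genes, and 7673 genes were not called. Over all called genes, rises had a median log2 change of 0.94 (1.92-fold) and falls a larger one of -1.40 (2.64-fold). A log2 change of at least 1 was reached by 2077 rising and 3550 falling genes, and one of at least 2 by 771 rising and 1589 falling genes. The surplus of large falls lay in genes of lower mean level over the 6 libraries. Changes of at least 2 numbered 242 up and 1139 down below 100 normalised counts, and 243 and 404 from 100 to 1000. From 1000 to 10000 they numbered 240 up and 44 down, and at 10000 or more 46 and 2. Across all tested genes the median log2 change was -0.08. Among the rising genes 4354 (97.7%) had every stage 3 library above every stage 2 library, a pattern found in 30.5% of all tested genes. Among the falling genes 5103 (97.6%) had every stage 3 library below every stage 2 library, against 35.5% of all tested genes.

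Other scalings gave another split between rises and falls. As deposited, 46.0% of the called genes rose. Scaling to equal total reads moved the median of all genes to -0.70, and 1852 genes then rose and 10313 fell, so that 15.2% of the called genes rose. After quantile normalization 3894 genes rose and 4140 fell (48.5% rising, median -0.03). The sum of normalised counts was 20698304 ± 1153020.5 in stage 3 and 13540502 ± 722417 in stage 2 (SD, n = 3 each), a ratio of 1.53. Changes below are relative to the deposited scaling, in which the typical gene stayed near its level and the sum of all genes did not.

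The expression filter itself fixed part of the outcome for genes near its edge. Of the kept genes, 178 passed only through stage 3 libraries, and 129 of these were called higher. A further 862 passed only through stage 2 libraries, and 707 of these were called lower. The 14647 genes that reached the minimum in all 6 libraries gave 4097 rises and 3870 falls, 54.4% of them called. With the minimum raised to 50 normalised counts, 4247 genes rose and 4145 fell, and the median log2 change of all tested genes was 0.01. In neither of these sets did falls outnumber rises, so the surplus of falls in the main comparison depended on low genes. Second-highest values near the minimum were 10.03 for the lowest gene kept and 9.92 for the highest gene set aside. Of the 15895 genes set aside, 9658 had no reads in any of the 6 libraries and 651 reached the minimum in 1 library.

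The direction of change followed the level of expression. Among the 196 genes averaging 10000 or more normalised counts over the 6 libraries, 135 rose and 8 fell. Genes between 1000 and 10000 gave 1910 rises and 316 falls among 3358. In the class from 100 to 1000, 1853 rose and 2539 fell among 8139. Below 100, 560 rose and 2364 fell among 5665. Abundant transcripts thus more often gained and scarce ones more often lost. Median log2 changes were 0.99, 0.46, -0.06 and -0.79 from the highest class to the lowest. Part of the falls among low genes was fixed by the filter, since 707 of the 862 genes that passed only through stage 2 were called lower. The classes were not counted without these genes. Leaving out stage 2 replicate 2 gave 143 rises and 5 falls in the highest class and 527 rises and 2144 falls in the lowest.

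**Figure D1:**
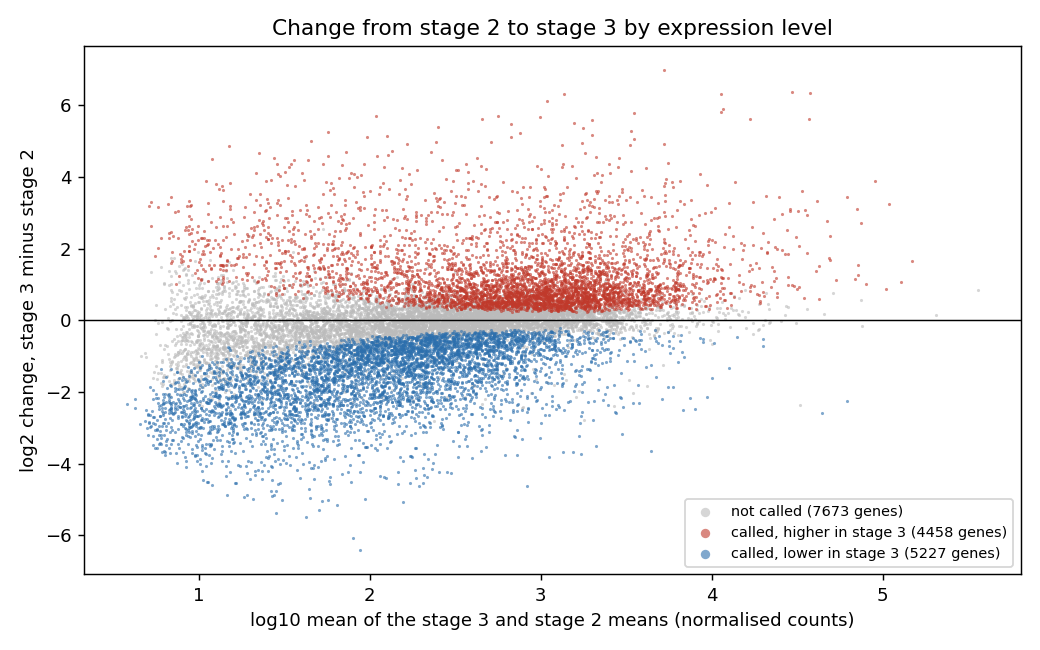
Each point is 1 of 17358 genes, placed by the log10 of its mean level (x axis, normalised counts) and its log2 change, stage 3 minus stage 2 (y axis). Red genes (4458) were called higher in stage 3, blue genes (5227) were called lower and grey genes were not called. Above 1000 normalised counts red points outnumber blue ones, and below 100 blue points outnumber red ones.

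Depth and scaling were varied to see how far the pattern by level depended on them. With reads thinned at random until 1 read was worth the same in every library, 135 genes rose and 6 fell in the highest class, and 465 rose and 1945 fell in the lowest. With the coarser counting in stage 3 evened out, the classes thus kept their order, with fewer calls in the lowest class and a share of rises there of 19.3%, against 19.2% as deposited. With equal total reads the order of the classes was kept but all of them shifted downwards, to 90 rises and 43 falls in the highest class and 333 rises and 3468 falls in the lowest. Quantile normalization forces every library to the same distribution of values, and the pattern was not present after it (60 rises and 74 falls in the highest class, 1041 rises and 1006 falls in the lowest).

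**Figure D2:**
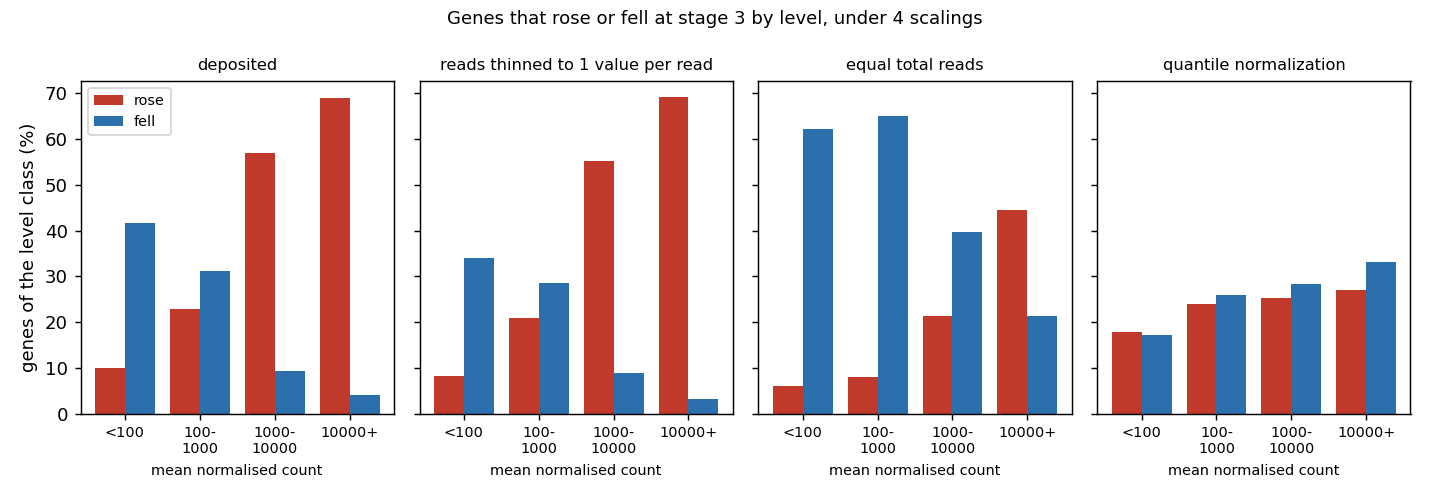
Bars give the percentage of tested genes that rose (red) or fell (blue) at stage 3 in 4 classes of mean normalised count (x axis), under 4 scalings. Rises outnumbered falls in the 2 upper classes as deposited and after thinning, in the highest class only with equal total reads, and nowhere by a wide margin after quantile normalization.

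Much of the added transcript came from a small set of genes. Summed over the 8119 genes with a higher mean in stage 3, the gain was 8822529.9 normalised counts, of which the 10 largest gains made up 13.9% and the 100 largest 43.1%. A share of 0.5 of the gain was reached with 164 genes. The summed loss over the 9239 genes with a lower mean was 1660692.5 normalised counts. Of this loss the 10 largest losses made up 14.6% and the 100 largest 31.8%, and 403 genes were needed for a share of 0.5. The share of the 10 largest was thus no higher for gains than for losses. The deposited size factors set how far the summed gain exceeds the summed loss. With equal total reads the gain was 4682001 and the loss 4675463 normalised counts, and 74 genes made up 0.5 of the gain and 820 genes 0.5 of the loss.

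The most abundant genes of each library took a larger share in stage 3. The 10 most abundant genes held 9.14%, 10.2% and 8.97% of the reads in stage 3 replicates 1, 2 and 3, against 8.10%, 7.79% and 7.50% in stage 2 replicates 1, 2 and 3. For the 100 most abundant genes the shares were 27.3%, 31.0% and 27.4% in stage 3, against 20.8%, 21.3% and 20.2% in stage 2. The stages did not overlap in either share, and the two-sided exact permutation p was 0.1 for each, the smallest that 3 against 3 libraries allow. Of the 100 most abundant genes of stage 3, 61 were also among the 100 most abundant of stage 2, and 5 genes were in the 10 most abundant of both. Of the stage 3 list 84 genes rose, 1 fell and 15 were not called. Of the stage 2 list 49 rose, 11 fell and 40 were not called. Each list was chosen on the means of its own stage, and the calls use the same libraries. The choice favours rises in the stage 3 list and falls in the stage 2 list. The lowest place that a gene of the stage 3 list held in stage 2 was rank 3377.

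Few genes had reads in one of the stages only. Among the kept genes 4 had reads in stage 3 and none in any stage 2 library, and 25 had reads in stage 2 and none in any stage 3 library. None of these averaged 100 normalised counts in the stage where it was present, the highest means being 30.2 in stage 3 and 56.8 in stage 2. With a floor of 3 reads per library, averaged over the libraries of the stage without reads, the widest difference was at least 12.4-fold for genes absent from stage 2 and at least 11.3-fold for genes absent from stage 3. Without stage 2 replicate 2, 9 genes with reads in stage 3 had none in stage 2 and the bound was at least 46.6-fold; for the 25 genes absent from stage 3 it was at least 15.6-fold. These floors cover counting error only. Stage 3 was sequenced to 53720616 reads in all and stage 2 to 78970001, which leaves stage 3 the weaker test of absence. At 10 normalised counts or more there were 15888 ± 99.9 genes per library in stage 3 and 16874 ± 255 in stage 2 (SD, n = 3 each, exact permutation p = 0.1).

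The largest gain in normalised counts among the genes that met the rule for named genes was in Ro01_G01174. It stood at 151910, 255802 and 177376 normalised counts in stage 3 replicates 1, 2 and 3, against 13173, 39804 and 15461 in stage 2 replicates 1, 2 and 3. All stage 3 libraries lay far above all stage 2 libraries, and stage 2 replicate 2 was the highest of its stage. The means were 195029 ± 54149 in stage 3 and 22812 ± 14759.7 in stage 2 (SD, n = 3 each), an 8.55-fold difference, with a log2 change of 3.24 ± 0.35 (SE, limma adjusted p = 1.76e-05). Without stage 2 replicate 2 the difference of means was 13.6-fold and the log2 change 3.74. By mean level the gene was 4th in stage 3 and 29th in stage 2. In the libraries outside the comparison it stood 2738 ± 239.9 normalised counts at stage 1 (n = 3), 309146 ± 3135 at stage 4 (n = 2) and 424895 ± 32787 at stage 5 (n = 3).

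Ro04_G26206 had the next largest gain and the same layout of libraries. Its values were 137748, 221585 and 144969 normalised counts in stage 3, against 6248, 27374 and 8059 in stage 2. Stage 2 replicate 2 was again above the other stage 2 libraries, yet far below stage 3. The stage 3 mean of 168101 ± 46459 was 12.1 times the stage 2 mean of 13894 ± 11709 (log2 change 3.88 ± 0.45, limma adjusted p = 2.58e-05). Without stage 2 replicate 2 the means were 23.5-fold apart and the log2 change was 4.53. Stage 1 held 2988 ± 919 and stage 5 held 420218 ± 49729 normalised counts.

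Among the genes that met the rule for named genes, the largest losses were in genes that had been among the most abundant of stage 2. The choice by difference of means favours such genes. Ro06_G15286, 3rd by mean level in stage 2 and 85th in stage 3, had 15395, 47048 and 12424 normalised counts in stage 3, against 101466, 91727 and 103335 in stage 2. The stage 2 libraries were close together, and the stage 3 libraries were spread, with replicate 2 well above the others. The stage 3 mean of 24956 ± 19190.2 was 3.96-fold below the stage 2 mean of 98843 ± 6232 (log2 change -2.25 ± 0.65, limma adjusted p = 0.0106). Leaving out stage 3 replicate 1, 2 or 3 gave log2 changes of -2.03, -2.84 or -1.87 (limma adjusted p = 0.0394, 0.00426 or 0.0481), edgeR gave -1.97 and quantile normalization -3.63. This gene was highest in stage 2, with 1019 ± 254 normalised counts in stage 1, 21136 ± 3573 in stage 4 and 15355.5 ± 17085 in stage 5. Every library of stages 3, 4 and 5 lay above every stage 1 library, so after stage 2 the gene was lower but did not return to its stage 1 level.

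Ro06_G02855 lost nearly as much. Stage 3 replicates 1, 2 and 3 had 10257, 27251 and 6376 normalised counts, against 72483, 67362 and 80213 in stage 2. The stages did not overlap, and stage 3 replicate 2 was again the highest of its stage. The means were 14628 ± 11103 in stage 3 and 73353 ± 6469 in stage 2, 5.01-fold apart (log2 change -2.59 ± 0.80, limma adjusted p = 0.0148). The call was lost without stage 3 replicate 3 (log2 change -2.13, limma adjusted p = 0.0637) and with stage 3 replicate 1 as the only stage 3 library (-2.83, limma adjusted p = 0.0739). After quantile normalization the log2 change was -4.01.

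**Figure D3:**
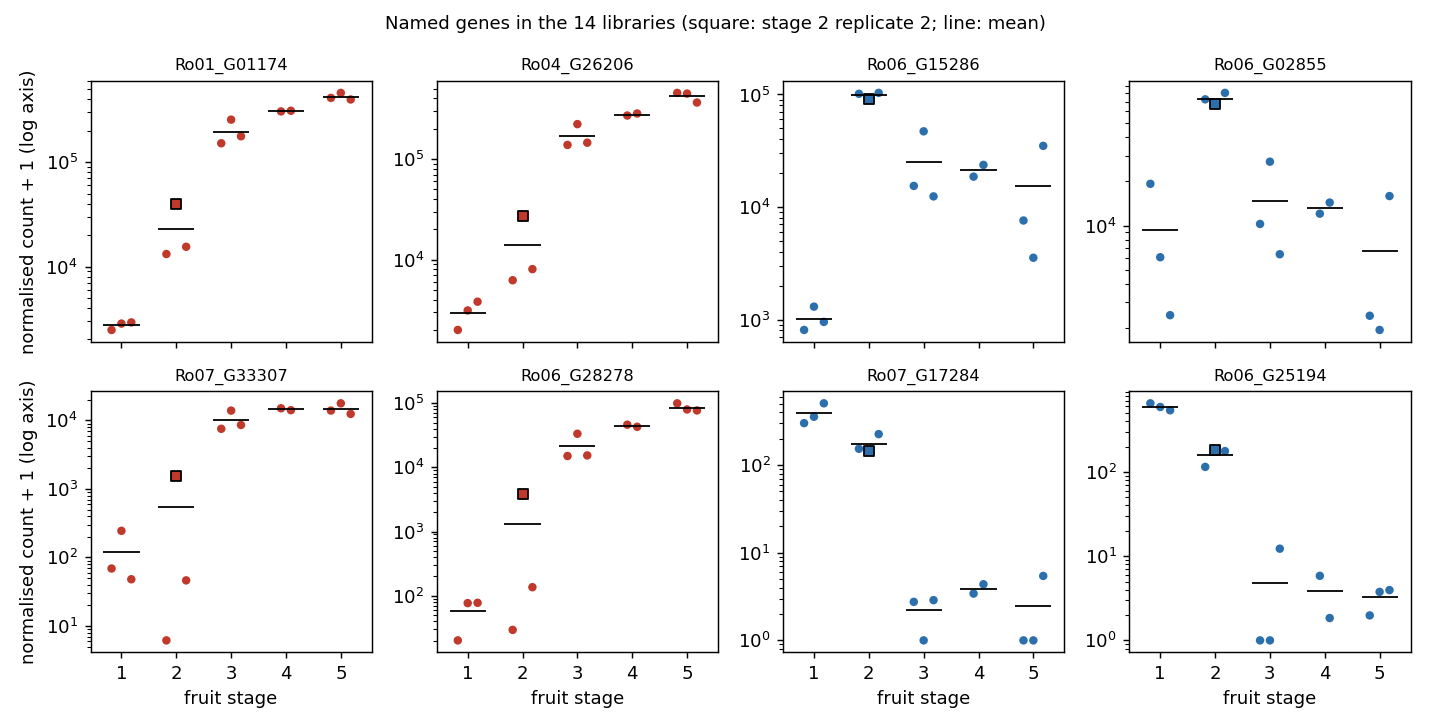
Normalised counts + 1 (y axis, log scale) of 8 named genes in the 14 libraries by fruit stage (x axis); circles are libraries, the square is stage 2 replicate 2 and lines are stage means. In the 4 rising genes (red) the square lies above the other stage 2 libraries, and in the 4 falling genes (blue) it lies close to them.

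The called genes were followed into stages 1, 4 and 5, whose libraries the comparison did not use for its contrast. Genes that rose at stage 3 held 65.9% ± 2.05 of all normalised counts in stage 3 and 41.4% ± 4.51 in stage 2 (SD, n = 3 each), a contrast fixed by their choice. In the libraries of the other stages they held 32.7% to 33.9% (stage 1), 70.6% and 71.2% (stage 4) and 71.7% to 74.3% (stage 5). Genes that fell at stage 3 held 24.6% to 25.3% (stage 1), 4.00% and 3.95% (stage 4) and 2.97% to 3.54% (stage 5). In every stage 4 and stage 5 library the rising genes thus held more, and the falling genes less, than in any stage 1 library.

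**Figure D4:**
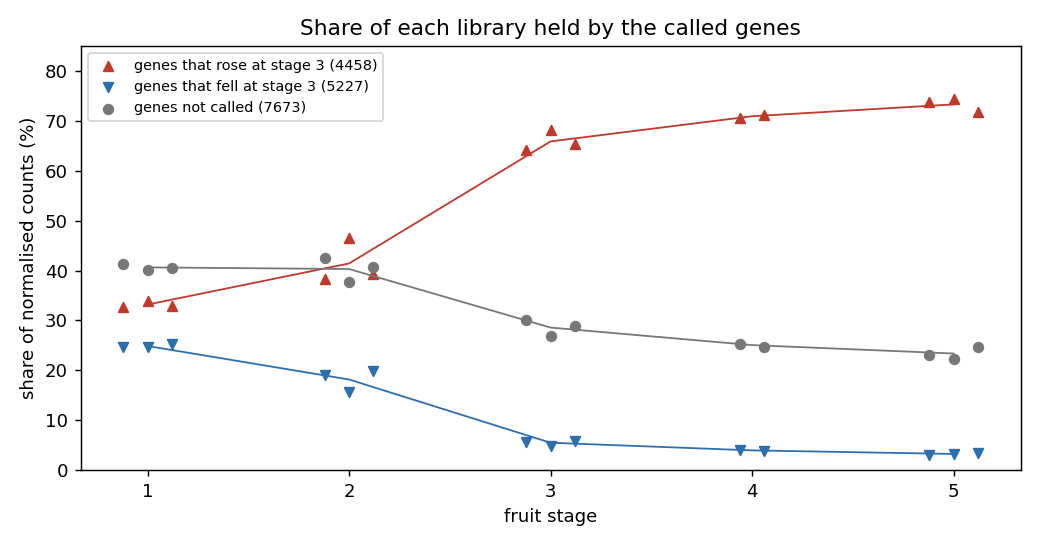
Share of all normalised counts (y axis, %) held in each of 14 libraries by genes that rose (red), fell (blue) or were not called (grey) at stage 3, by fruit stage (x axis); points are libraries and lines join stage means. The rising genes hold 32.7% to 33.9% in stage 1 and 71.7% to 74.3% in stage 5.

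Stage 4 against stage 1, a comparison that shares no library with stage 3 against stage 2, placed most of these genes in the same order. It called 71% of all tested genes, 33.3% higher and 37.6% lower in stage 4. Of the 4458 genes that rose at stage 3, 3819 (85.7%) were called higher in stage 4 than in stage 1 and 123 (2.76%) lower. Of the 5227 genes that fell at stage 3, 4410 (84.4%) were called lower in stage 4 and 145 (2.77%) higher. Both groups therefore stood far from the background of all genes, with median log2 changes of 1.39 for the rising and -1.94 for the falling group against -0.11 for all genes. With the genes called without stage 2 replicate 2 the shares were 86.8% and 86.2%. The comparisons come from 1 model and share its estimate of spread per gene.

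The same genes were then read from stage 4 to stage 5. Stage 5 against stage 4 also shares no library with stage 3 against stage 2, and it called 20.2% of all tested genes, 8.24% higher and 11.9% lower. Of the genes that rose at stage 3, 466 (10.5%) were called higher in stage 5 and 542 (12.2%) lower. Of those that fell at stage 3, 322 (6.16%) were called higher and 667 (12.8%) lower. These shares lay near the background in both directions. With equal total reads the background was 4.21% higher and 17.1% lower, against 7.24% and 23.2% of the genes that rose and 3.45% and 15.8% of those that fell under that scaling. With the genes called without stage 2 replicate 2, 11.5% of the rising genes were higher and 16.3% lower in stage 5, against 8.33% and 12.7% of all genes of that fit. The 2 named genes with the largest gains had log2 changes of 0.46 ± 0.39 and 0.60 ± 0.50 (SE) in stage 5 against stage 4, neither of them called (limma adjusted p = 0.445 for Ro01_G01174 and 0.427 for Ro04_G26206). Their SEs use the spread of all stages, including stage 2 replicate 2. Ro01_G01174 stood at 306930 and 311363 in stage 4 and at 399419 to 461886 in stage 5. Ro04_G26206 stood at 269689 and 282417 in stage 4 and at 362943 to 452420 in stage 5. A missing call is thus no sign of a level course.

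Stage 1 levels were set beside those of the compared stages. For 2961 (66.4%) of the rising genes the stage 1 mean lay below both stages, for 1172 (26.3%) between them and for 325 (7.29%) above both. For 3307 (63.3%) of the falling genes it lay above both stages, for 1564 (29.9%) between them and for 356 (6.81%) below both. Most genes called at stage 3 thus stood further from their stage 3 level in stage 1 than in stage 2. These counts order stage means, without a test.

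Stage 2 replicate 2 was placed on the way from stage 2 to stage 3. For each library, the position of each gene was its distance from the mean of the stage 2 libraries divided by the distance between the stage 2 and stage 3 means, taken without that library, on the log2 scale; genes whose means differed by at least 1 were used. The median position was 0.19 for stage 2 replicate 2, over 6588 genes, and -0.05 and -0.11 for stage 2 replicates 1 and 3. The stage 2 means used for replicates 1 and 3 included replicate 2, which moves their positions away from stage 3. Their positions are therefore no independent yardstick. Replicate 2 had also been singled out beforehand as lying towards stage 3. Stage 3 replicates 1, 2 and 3 stood at 0.91, 1.07 and 0.89. Replicate 2 was thus displaced towards stage 3 and remained much nearer to its own stage.

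The displacement was unequal between rising and falling genes. Genes higher in stage 3 put stage 2 replicate 2 at a median position of 0.38, and genes lower in stage 3 at 0.11. In stage 2 replicate 1 the same medians were -0.26 and 0.01, and in stage 2 replicate 3 they were -0.15 and -0.09. Both were again set against stage 2 means that included replicate 2. With a difference of at least 2 between the means, the medians for replicate 2 were 0.49 for rising and 0.08 for falling genes. In this library the genes higher in stage 3 thus lay further along than the genes lower in stage 3. It was also the shallowest library of its stage, with 8601064 reads. With reads thinned to the same value of 1 read in every library, the medians for replicate 2 were 0.39 for rising and 0.11 for falling genes.

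**Figure D5:**
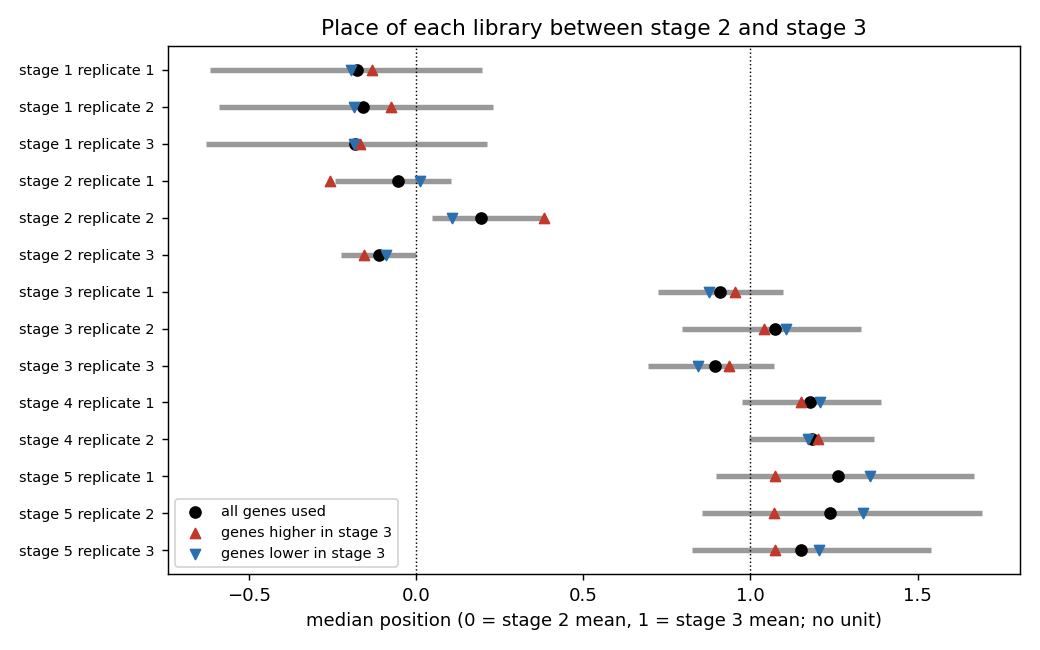
Median position of each of the 14 libraries between the stage 2 mean (0) and the stage 3 mean (1) on the x axis, for all genes used (black), genes higher in stage 3 (red) and genes lower in stage 3 (blue); grey bars are quartiles over all genes used. Stage 2 replicate 2 stands at 0.19 overall and at 0.38 for the genes higher in stage 3.

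Without stage 2 replicate 2 the comparison kept its outline. Of 17131 genes tested, 4265 rose and 4762 fell, 9027 in all or 52.7%. The share of rises was 24.9% and that of falls 27.8% of the tested genes. Called in the same direction with and without the library were 8793 genes, 4142 rising and 4651 falling, and 0 genes changed direction between the 2 fits. A further 892 genes were called only with it and 234 only without it. Large rises became more frequent: a log2 change of at least 4 was reached by 212 rising genes without the library and by 93 with it. For falling genes the counts were 94 without it and 87 with it.

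The genes called without this library were then read in it. In 3400 of the 4265 rising genes (79.7%) stage 2 replicate 2 lay above both other stage 2 libraries, and in 3063 of the 4762 falling genes (64.3%) it lay below both. When stage 2 replicate 1 was left out and read in the same way, 18.1% of the rising and 35.7% of the falling genes lay towards stage 3. For stage 2 replicate 3 it was 10.7% and 12.6%. These readings kept stage 2 replicate 2 among the libraries compared, and a gene has a single outermost library. The shares for replicates 1 and 3 were therefore held down by the place of replicate 2 and are no independent yardstick. Stage 2 replicate 2 reached the range of the stage 3 libraries in 164 rising and 148 falling genes, 3.85% and 3.11%. The rising genes held 45.3% of its normalised counts, against 36.6% and 37.8% in stage 2 replicates 1 and 3 and 62.7% to 66.8% in stage 3.

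Genes with the largest rises in this repeat showed how far the library could matter. They were chosen in the fit without it, which favours genes that were low in stage 2 replicates 1 and 3. A smaller change with the library is therefore partly fixed by the choice. Ro07_G33307 had 7550.3, 13923 and 8586 normalised counts in stage 3, against 5.15 and 45.2 in stage 2 replicates 1 and 3, with 1569 in the replicate left out. The left-out library thus lay between the stages and nearer to stage 3 on a log scale. Without it the log2 change was 9.16 ± 0.73 (SE, limma adjusted p = 1.01e-06), and with it 6.98 ± 1.37. Ro06_G28278 had 15038, 33402 and 15353.5 normalised counts in stage 3, against 28.3 and 135 in stage 2 replicates 1 and 3, with 3781 in replicate 2. Its log2 change was 8.29 ± 0.63 without replicate 2 (limma adjusted p = 7.34e-07) and 6.32 ± 1.22 with it. Without stage 2 replicate 1 as well, the changes were 7.71 and 7.19, and without stage 2 replicate 3 as well, 10.62 and 9.40, with 1 stage 2 library left and assumed to vary like the other stages. Ro07_G33307 then had 14589 ± 663 in stage 4 and 14730.0 ± 2747 in stage 5. Ro06_G28278 had 44562 ± 2382 in stage 4 and 85506 ± 12272 in stage 5. Neither gene was called in stage 5 against stage 4 in the fit with all 14 libraries. The log2 changes were -0.0015 ± 1.53 for Ro07_G33307 and 0.93 ± 1.37 for Ro06_G28278 (SE, limma adjusted p = 0.671 for the latter). These SEs use the spread of all stages, including stage 2 replicate 2, and do not measure the spread within stages 4 and 5. Ro06_G28278 stood at 46246 and 42877 in stage 4 and at 99590, 79822 and 77106 in stage 5, without overlap. The stage 4 and stage 5 libraries of Ro07_G33307 overlapped.

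The 2 largest falls of the repeat were in genes of moderate level that nearly vanished. Ro07_G17284 had 1.75, 0 and 1.88 normalised counts in stage 3, which is 3, 0 and 1 reads, against 152 and 225 in stage 2 replicates 1 and 3. Stage 2 replicate 2, at 142, was level with the other stage 2 libraries. The log2 change was -6.54 ± 0.71 (SE, limma adjusted p = 1.28e-05). All its stage 3 values lay below the minimum of 10 normalised counts, so the gene passed the filter only through stage 2. Its direction was thereby fixed, and the p-value is no separate support for the fall. Ro06_G25194 had no reads in stage 3 replicates 1 and 2 and 6 reads in replicate 3, or 11.3 normalised counts, against 114 and 176 in stage 2 replicates 1 and 3 and 180.5 in the replicate left out. Its log2 change was -5.95 ± 0.91 (SE, limma adjusted p = 0.00018), and -5.35, -5.35 and -7.15 without stage 3 replicate 1, 2 and 3. With a pseudocount of 10 these falls were -4.13 for Ro07_G17284 and -3.56 for Ro06_G25194. Stage 1 had been higher still, at 387 ± 106 for Ro07_G17284 and 593 ± 56.7 for Ro06_G25194.

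Spread among replicates was somewhat larger in stage 3 than in stage 2. The SD of log2 values within a stage had a median over genes of 0.25 in stage 3 and 0.19 in stage 2. Between pairs of libraries it was 0.14 for stage 2 replicates 1 and 3. Pairs of stage 2 replicate 2 with replicates 1 and 3 gave 0.19 and 0.15, and the pairs of stage 3 gave 0.18 to 0.23. The letters that open the title codes differ between the stages in part, since stage 3 replicates 2 and 3 carry TH and the other 4 libraries of the comparison YH. With these letters as a term over all 14 libraries 7160 genes were called, 3406 rising and 3754 falling. Stage 3 replicate 1, the YH library, against the 3 stage 2 libraries gave 3021 rises and 3169 falls, with the other stages supplying the spread.

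Called genes were spread evenly over the 7 prefixes of the identifiers. Between 53.8% (Ro04) and 57.5% (Ro02) of the tested genes of a prefix were called, against 55.8% in all. The share of rises among the called genes lay between 43.0% (Ro03) and 48.2% (Ro01). No prefix stood far from the whole.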

How the data were processed

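Fruit RNA was required to pass an RNA integrity minimum, enriched for poly(A) transcripts and sequenced as stranded libraries, per the labels' protocols. The submitters' processing notes list Trimmomatic, HISAT2 and DESeq2. For software versions, counting tool, genome build and annotation, nothing is given in the sources used here. Values in the deposited table are a normalised signal, which the authors scaled with DESeq2, per the name of the table. Whole reads were recovered, since dividing each library by its smallest step gave whole numbers, with a tolerance of 0.01, for 100% of the values. Chi-square values per gene between replicates of stage 3 and of stage 2 were 19.8 to 53.6, so none of these 6 libraries was counted as a copy of another of its stage.

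The kept genes were analysed on the log2(normalised count + 1) scale, which understates changes of low genes, using limma 3.58.1 (R 4.3.3). One model held all 14 libraries and a mean per stage, and its prior variance followed a trend. Two-sided p-values were adjusted over all kept genes by the Benjamini-Hochberg method. The recovered reads were also tested with edgeR 4.0.16 (quasi-likelihood, TMM scaling) and DESeq2 1.42.0. The procedure was tested on simulated counts.

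Named genes had to be called, to have no overlap between the stages and to average 100 normalised counts or more where they were higher. The 2 rises and 2 falls with the largest difference of means are given for the comparison, and those with the largest log2 change for the repeat without stage 2 replicate 2. Genes, lists and rules were chosen with earlier results of these data known. Gene lists fixed on gene names could not be used. Thinning, in which reads were removed at random to a common value per read, was added after the data had been seen.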

Additional observations from a re-analysis of the deposited data

How the results depend on the processing

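Of the alternatives to the 9685 calls, those on the pseudocount, filter, scaling, prior variance, test and depth gave 8034 (quantile normalization) to 12165 (equal total reads). Of the 9685 genes, edgeR called 9528 and DESeq2 9562 in the same direction, equal total reads 7079 and quantile normalization 6353. Requiring a log2 change of at least 1 left 5627 genes, and 5716 in the repeat without stage 2 replicate 2, by construction. With stage 3 replicate 1, the YH library, as the only one of its stage 6190 genes were called, with fewer samples. Leaving out single libraries gave 7803 to 9027 genes, and in the repeat 5960 to 8297, the lowest when stage 2 was left with 1 library (5960 without replicate 1, 6001 without replicate 3). Genes called at stage 3 and again in stage 5 against stage 4 numbered 1997, and 1126 after quantile normalization, for which the cause was not tested; leaving out single libraries gave 908 to 2064, with 989 without stage 4 replicate 1 and 908 without stage 4 replicate 2, which leaves 1 library in that stage. The differences in the share of reads were 1.26 to 1.89 percentage points (10 genes) and 6.59 to 8.42 (100 genes) when single libraries were left out, and 2.61 and 8.55 with the genes fixed on the mean of the 6 libraries. DESeq2 gave no adjusted p for Ro06_G15286. A replicate block called 10090 genes over all 14 libraries and 10175 with only stages 2 and 3. The titles number the stage 4 libraries 1 and 2 and their library names 2 and 3; with the numbers of the library names, added after the data had been seen, the block over all 14 libraries called 10227. Deviations of same-numbered libraries from their stage means correlated at 0.15, 0.09 and 0.12 for replicates 1, 2 and 3, each library correlating best with its own number, which is a hint from the data and not the design. Without strand settings or gene models, reads of paralogs or overlapping genes could not be told apart.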
